A study of Mus musculus with 12 samples.

Results

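The genes described here are splicing factors and related RNA-binding proteins, taken by name from the count table: rows whose symbol begins with Srsf, Hnrnp, Sf3a, Sf3b, Snrp, Prpf or U2af, or with Rbm or Lsm followed by a digit, and whose estimated counts sum to at least 120 over all libraries. Of 13404 rows, 92 names matched and 90 met the minimum. By name they are 10 Srsf, 12 Hnrnp, 7 Sf3 or U2af, 9 Snrp, 11 Prpf, 30 Rbm and 11 Lsm genes. Srsf7, Hnrnpa1, Hnrnpa2b1, Hnrnpc, Hnrnpll, U2af1 and U2af2 were not among the matching names, so the family values leave them out. Rbm31y, with a summed count of 0, and Rbm46os, with 26.5, fell below the minimum, and the members just inside it were Snrpn with 155, Rbm20 with 267 and Rbm11 with 599. All 90 also passed the low-count filter of the test, so no member was lost to it. Sequencing of poly(A) RNA measured them in CD4+CD25+ regulatory T cells (Treg), which restrain immune responses, and in CD4+ conventional T cells (Tconv). Both were sorted by flow cytometry from the spleens of C57BL/6 mice. The 6 groups of 2 libraries each are aged wild-type mice of over 18 months, mice labelled Dcaf1-deficient of 2 months, and young wild-type mice of 2 months, each as Treg and as Tconv. The study's title concerns Dcaf1, a substrate receptor of a CUL4 ubiquitin ligase, and Treg senescence. How Dcaf1 was deleted, and in which cells, is not stated in the labels. Nothing states that the 2 libraries of a group came from separate animals, so p-values measure only the spread between libraries, which may be technical.

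Splicing removes introns from pre-mRNA in the spliceosome, an assembly of small nuclear ribonucleoproteins (snRNPs) and many added proteins. The U1 snRNP marks the start of the intron, U2AF and the SF3 proteins of the U2 snRNP mark its end and branch point, and the tri-snRNP then brings the catalytic core. SR proteins (Srsf) mostly promote the use of the exons they bind, whereas many hnRNP proteins repress exons or shape the RNA. In T cells the best-known target is the phosphatase CD45, whose variable exons are skipped upon activation in a process that involves hnRNP L.

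The promoter sequences below belong to 4 members that were called different between Treg and Tconv, 3 lower in Treg (Srsf5, Srsf6, Rbm5) and 1 higher (Prpf31). Each is the 250 bases before the RefSeq start on GRCm38.p6, the build of mm10, read 5′ to 3′ on the gene's strand, and capitals mark a match to one of 6 searched motifs. Srsf5 (chr12:80945249-80945498, plus strand) holds the ETS core CCGGAAG once on each strand.
Srsf5: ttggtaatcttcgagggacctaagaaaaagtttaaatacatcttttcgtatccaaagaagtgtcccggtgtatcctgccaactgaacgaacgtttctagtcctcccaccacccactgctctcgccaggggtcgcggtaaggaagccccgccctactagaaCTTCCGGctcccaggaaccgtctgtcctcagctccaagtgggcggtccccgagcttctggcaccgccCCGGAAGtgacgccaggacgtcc
Srsf6 (chr2:162931258-162931507, plus strand) holds a GC box on its reverse strand.
Srsf6: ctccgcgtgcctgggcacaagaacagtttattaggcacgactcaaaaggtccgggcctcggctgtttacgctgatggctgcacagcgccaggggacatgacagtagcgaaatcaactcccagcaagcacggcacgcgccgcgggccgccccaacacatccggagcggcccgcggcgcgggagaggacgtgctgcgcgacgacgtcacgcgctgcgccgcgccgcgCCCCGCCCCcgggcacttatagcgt
Rbm5 (chr9:107771003-107771252, minus strand) and Prpf31 (chr7:3629735-3629984, plus strand) each hold 1 CCAAT box, reversed in Rbm5.
Rbm5: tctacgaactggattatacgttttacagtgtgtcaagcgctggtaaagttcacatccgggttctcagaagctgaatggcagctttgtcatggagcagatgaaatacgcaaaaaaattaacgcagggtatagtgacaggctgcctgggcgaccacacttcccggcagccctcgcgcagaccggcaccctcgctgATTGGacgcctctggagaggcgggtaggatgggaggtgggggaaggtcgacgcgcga
Prpf31: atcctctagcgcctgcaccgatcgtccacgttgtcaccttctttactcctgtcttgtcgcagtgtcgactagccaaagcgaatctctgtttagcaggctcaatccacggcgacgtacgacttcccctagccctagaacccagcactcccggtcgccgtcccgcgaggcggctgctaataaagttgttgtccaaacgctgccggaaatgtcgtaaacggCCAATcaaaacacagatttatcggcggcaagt
The motifs were searched on both strands in the table's windows of 250 bases before to 50 after the start, in the 77 members with an entry and in all 27025 promoters of the table. The ETS core CCGGAAG was in 22.1% of the members' promoters and 9.12% of all, the GC box GGGGCGGGG in 22.1% and 11.6%, and the E-box CACGTG in 13% and 7.24%. The CCAAT box was in 46.8% and 37.9%, the TATA box TATAAA in 11.7% and 14.2%, and the cAMP response element TGACGTCA in 1.3% and 1.88%. These shares describe letters in a window and not factor binding.

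Library totals ranged from 18358477 to 26852448 estimated counts. Levels are given as CPM, counts relative to the library's total, with totals scaled by the trimmed mean of M-values (TMM). Foxp3, the transcription factor that defines Treg, was at 745.5 and 1986 CPM in aged Treg, 624.8 and 534.7 in Dcaf1-deficient Treg and 1428 and 811.5 in young Treg, against 334.4 and 675.3 in aged Tconv, 80.79 and 75.65 in Dcaf1-deficient Tconv and 47.68 and 78.38 in young Tconv. The sum of 4 Treg markers was 2129 and 3151 CPM in aged Tconv. It was 336 and 409 CPM in young and 387 and 364 in Dcaf1-deficient Tconv. In Treg it was 2799 and 7224 CPM in aged, 2315 and 1918 in Dcaf1-deficient and 5178 and 2985 in young libraries. The part of Treg transcripts in the comparisons that use aged Tconv was not tested. The Treg libraries were uneven in transcripts of other cells. Of 8 macrophage markers 7 were in the table. Their summed level was 8126 and 562 CPM in aged Treg, 9700 and 11672 in Dcaf1-deficient Treg and 114 and 3265 in young Treg. Over the Tconv libraries it ran from 18.1 to 875 CPM, with the highest values, 826 and 875, in Dcaf1-deficient Tconv. The sum of 3 B cell markers was 1362 and 54.9 CPM in aged Treg, 1598 and 1720 in Dcaf1-deficient Treg and 52.3 and 1732 in young Treg, and 5 T cell markers summed to 2152 and 4622, 1872 and 1726, and 4062 and 2693 CPM in the same groups. Young Treg 2 and aged Treg 1 thus stood with both Dcaf1-deficient Treg libraries, apart from young Treg 1 and aged Treg 2. Counts of calls are also given without those 2 libraries, with values for the members whose call changed and that are described one by one. Dcaf1 itself (Vprbp in the table) was at 104.6 and 127.1 CPM in aged, 102.3 and 101.2 in Dcaf1-deficient and 143.9 and 127.7 in young Treg, and at 116.7 and 90.54, 132.3 and 132.3, and 146.9 and 143.7 CPM in the same groups of Tconv. The libraries labelled Dcaf1-deficient therefore kept most of the whole-gene count, and a count summed over exons cannot tell if 1 of them is gone. Xist, transcribed from the inactive X chromosome of females, was at 1263 to 2018 CPM in aged Treg 2, aged Tconv 2, Dcaf1-deficient Treg 2 and both Dcaf1-deficient Tconv libraries, and at 1.371 to 2.944 CPM in the other 7. All young libraries were among those with little Xist. In Dcaf1-deficient against young Tconv, sex as read from Xist therefore cannot be told apart from the label. In aged Treg, aged Tconv and Dcaf1-deficient Treg the 2 libraries of the group differed in Xist. The part of sex in the fold changes was not tested. The titles carry a tag, L3, L4 or L5, of unstated meaning. L3 is found on aged Treg 2 and aged Tconv 2 alone.

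Most members were expressed at a steady level. The SD of log2 CPM over the 12 libraries had a median of 0.182 over the members, against 0.391 over all 9495 genes tested. It was under 0.2 in 55 of 90 members (61.1%), against 23.1% of all genes. Members and all genes were not matched for level in these figures. The steadiest was Sf3b4, a subunit of the U2 snRNP's SF3B complex, at 85.34 to 92.31 CPM in every library. The highest mean levels were those of Sf3b1, the branch point-binding subunit of SF3B (1542 CPM), Hnrnpf (1327), Srsf5 (1074), Hnrnpk (931), Hnrnpu (914) and Prpf8, the core scaffold of the catalytic spliceosome (840). Per kilobase of exon, Hnrnpf stood at 435 CPM per kb and Srsf5 at 269. The 8 most variable members were Snrpn, Rbm47, Rbm11, Srsf12, Rbm20, Rbm38, Rbm12b1 and Lsm11, with SDs of 0.426 to 1.28. The first 5 of these are also the least expressed members, at mean levels of 0.523 to 5.06 CPM.

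**Figure D1:**
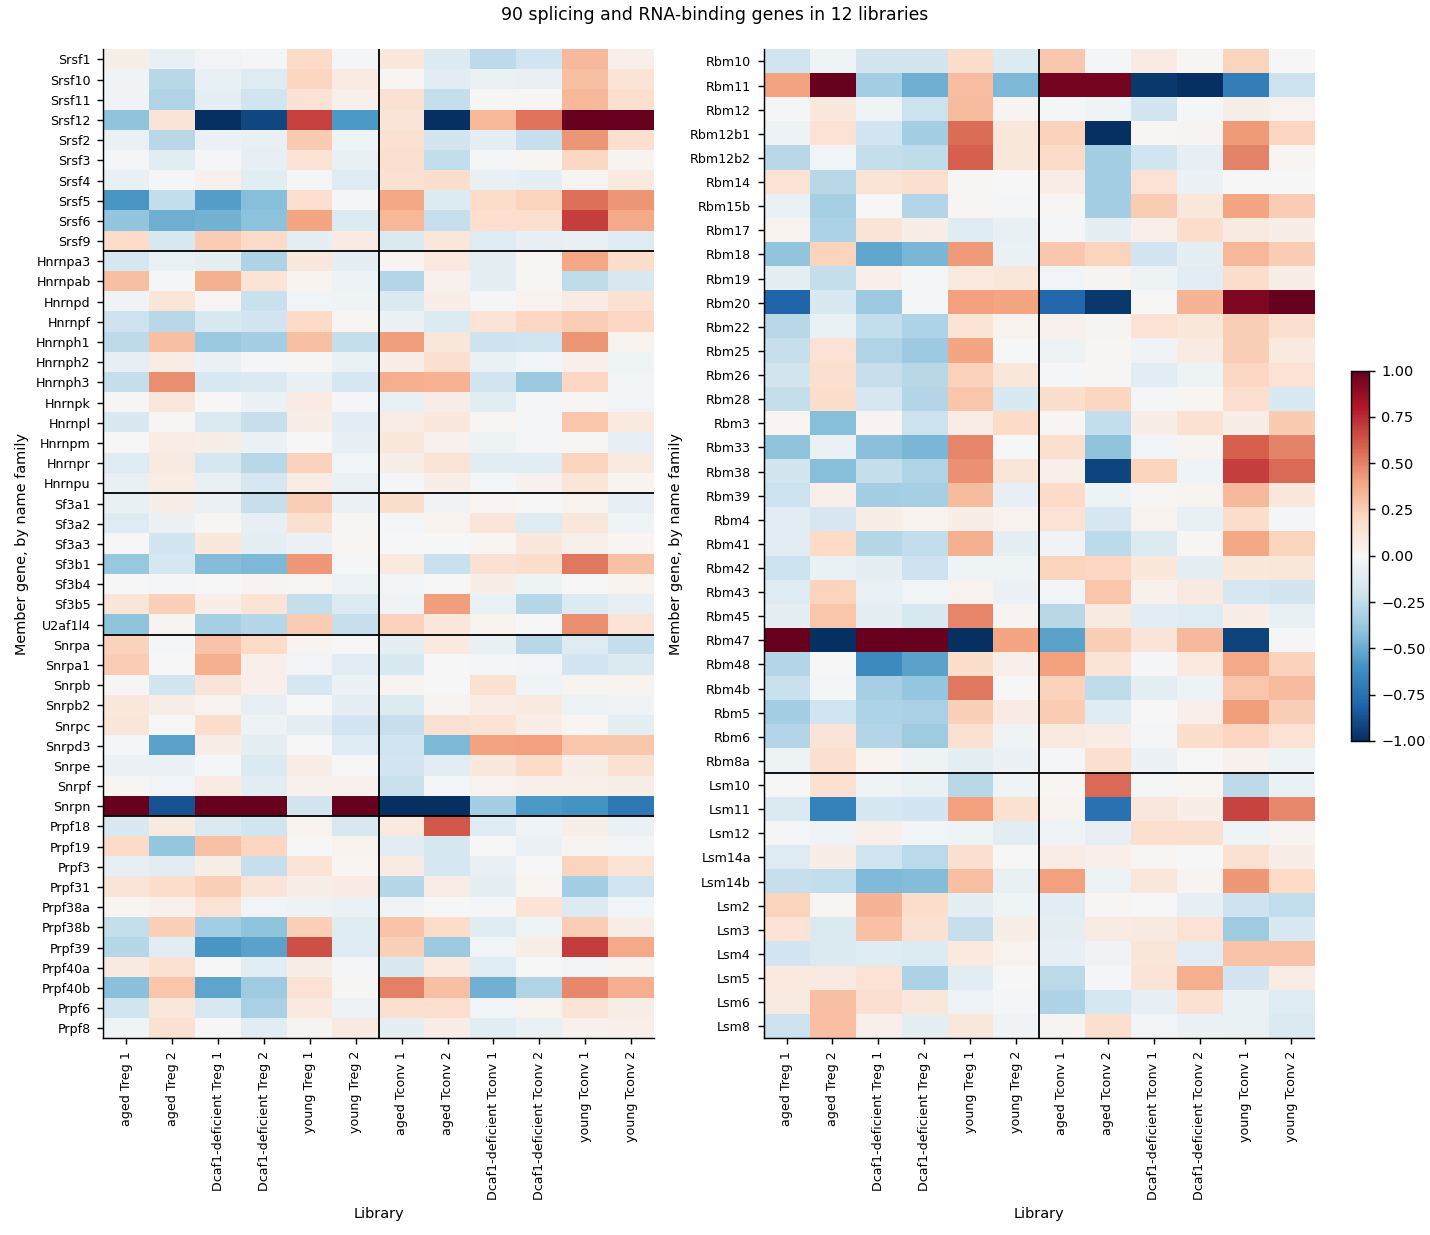
Level of each of the 90 members in each of 12 libraries, as log2(CPM + 0.1) minus the gene's mean, with colours ending at -1 and 1; rows are grouped by name family and a vertical line separates Treg (left) from Tconv. Most rows are pale, the strongly coloured rows are the low-count genes Snrpn, Rbm47, Rbm11, Srsf12 and Rbm20, and young Tconv 1 was the highest library for 30 members.

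Treg were first compared with Tconv over the 3 conditions, 6 libraries against 6. The SR protein genes Srsf5 and Srsf6 and a set of RBM genes were lower in Treg, while Prpf31 and the low-count Snrpn were higher. The edgeR quasi-likelihood test with Benjamini-Hochberg adjustment called 2 members higher and 7 lower in Treg, against 11.5% and 11% of all genes tested, so the members' shares were below the background in both directions. The median log2 fold change was -0.069 over the members and -0.0023 over all genes, with 25 members on the higher side and 65 on the lower. No member had all Treg libraries on one side of all Tconv libraries.

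Srsf5 (chromosome 12, 80945504 to 80950507), an SR protein that activates exons, was at 693.2 and 877.1 CPM in aged, 709.2 and 775 in Dcaf1-deficient and 1168 and 1027 in young Treg, against 1360 and 944.3 in aged, 1182 and 1215 in Dcaf1-deficient and 1523 and 1414 in young Tconv. Within each condition both Treg libraries lay below both Tconv libraries, but young Treg overlapped aged Tconv. The log2 fold change was -0.56 (SE 0.11, edgeR adjusted p 0.0151). Srsf6 (chromosome 2, 162931528 to 162937121), another SR protein, was at 402.9 and 377.8, 380.2 and 398.7, and 695.4 and 480.1 CPM in aged, Dcaf1-deficient and young Treg, against 666.5 and 449.6, 593.5 and 593, and 852.4 and 688.8 CPM in the same groups of Tconv. Its log2 fold change was -0.50 (SE 0.13, edgeR adjusted p 0.0315), and young Treg 1 lay above young Tconv 2. The other 8 Srsf members were not called, among them Srsf1 at 0.039 (SE 0.077), Srsf2 at -0.089 (SE 0.095) and Srsf3 at -0.057 (SE 0.086).

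Among the lower calls, 4 were RBM genes. Rbm5 (chromosome 9, 107740371 to 107770996), a regulator of Fas splicing, was at 313.5 and 346.1, 321 and 318.1, and 470.4 and 421.4 CPM in aged, Dcaf1-deficient and young Treg, against 474.1 and 365.9, 397.9 and 411.5, and 532.5 and 473 CPM in the same groups of Tconv (-0.29 on the log2 scale, SE 0.08, adjusted p 0.0387 by edgeR). As for Srsf5, Treg lay below Tconv within each condition. Rbm48, which acts with the minor spliceosome, fell by 0.41 (SE 0.089, edgeR adjusted p 0.0184), and its libraries ranged from 22.33 to 39.27 CPM in Treg and from 34.35 to 46.27 in Tconv. Rbm22, a protein of the catalytic spliceosome, fell by 0.24 (SE 0.052, edgeR adjusted p 0.0187) and Rbm42 fell by 0.22 (SE 0.054, edgeR adjusted p 0.0266). Lsm14b, a relative of the P-body protein Lsm14a, fell by 0.38 (SE 0.10, edgeR adjusted p 0.0361). Prpf31 (chromosome 7, 3629985 to 3642486), which holds the tri-snRNP together, was at 100.4 and 103.5, 108.3 and 100.5, and 95.86 and 97.15 CPM in aged, Dcaf1-deficient and young Treg, against 75.32 and 96.29, 85.67 and 92.91, and 72.42 and 80.03 CPM in the same groups of Tconv. Its log2 fold change was 0.27 (SE 0.072, edgeR adjusted p 0.0342), and a single aged Tconv library (96.29 CPM) reached into the Treg range.

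Snrpn, an imprinted Sm protein gene best known from brain, had 41 and 3 estimated counts in aged, 45 and 23 in Dcaf1-deficient and 6 and 20 in young Treg, against 1 and 1, 5 and 4, and 4 and 3 counts in the same groups of Tconv. The 4 Treg libraries with many counts are those with the high macrophage and B cell sums, and aged Treg 2 and young Treg 1 had counts close to Tconv. The log2 fold change was 2.70 (SE 0.64, edgeR adjusted p 0.0242); the part of the other cells' transcripts in it was not tested, and Snrpn shares exons with Snurf in the annotation, so its own share of these reads is uncertain. Prpf31, Rbm42 and Rbm48 also overlap exons of another annotated gene, as do 41 of the 90 members, and use of strand in counting is not stated.

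The calls between the cell types rested on the libraries included. For the fits that follow, the share of all genes called is not given, so their counts show only how the calls moved. Leaving out Dcaf1-deficient Treg 1, young Tconv 1 or Dcaf1-deficient Tconv 1 left 0 members called, leaving out young Treg 2, Dcaf1-deficient Treg 2 or Dcaf1-deficient Tconv 2 left 1, and leaving out young Tconv 2 left 2, whereas leaving out aged Tconv 2 gave 15 and aged Treg 2 gave 20. Without both young Treg 2 and aged Treg 1 only Rbm11 was called, a gene not called with all 12 libraries. The 9 lost calls kept their direction there, with -0.45 for Srsf5 (edgeR adjusted p 0.0587), -0.42 for Srsf6 (0.0947), -0.22 for Rbm5 (0.178), -0.33 for Rbm48 (0.0697), -0.17 for Rbm22 (0.0691), -0.18 for Rbm42 (0.103), -0.31 for Lsm14b (0.129), 0.29 for Prpf31 (0.0725) and 1.52 for Snrpn (0.0666). With a term for the tag 0 members were called, and DESeq2 called 16. A fit by limma-trend on the deposited log2 values called 3 members higher and 5 lower. With a replicate block edgeR called 2 higher and 8 lower. Among libraries of tag L4, young Treg minus young Tconv 1 was -0.48 log2 CPM for Srsf5, -0.56 for Srsf6, -0.26 for Rbm5 and 0.41 for Prpf31, and within tag L3, aged Treg 2 minus aged Tconv 2 was -0.11, -0.25, -0.08 and 0.10.

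**Figure D2:**
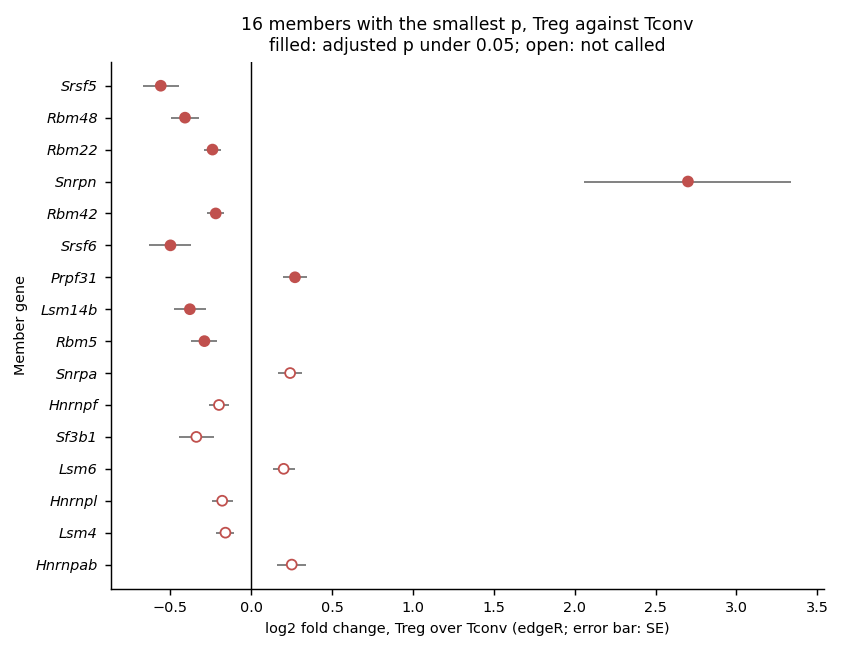
Log2 fold change of Treg over Tconv for the 16 members with the smallest p, from the edgeR fit; error bars are standard errors, filled points have an adjusted p under 0.05 and open points do not. The 9 filled points are 7 below 0, from Srsf5 at -0.56 to Rbm42 at -0.22, and Snrpn (2.70) and Prpf31 (0.27) above it.

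The age and Dcaf1 comparisons were made within each cell type, and both use the same young libraries as controls, so their values are set side by side and not read as separate evidence. In aged against young Treg edgeR called 0 of 90 members (0% of all 9495 genes); 11 members had an unadjusted p under 0.05, 1 higher and 10 lower, against 842 higher and 855 lower of all genes, and DESeq2 called 1 member, Hnrnpf, lower (3.19% of genes called lower). In Dcaf1-deficient against young Treg edgeR again called 0 members (0% of all genes), 21 had an unadjusted p under 0.05, all lower, against 1005 higher and 1354 lower of all genes, and DESeq2 called 10 members lower (6.12% of genes). In aged against young Tconv edgeR called 0 members higher and 1 lower, where 6.38% of genes were called higher and 2.47% lower; 2 members were higher and 13 lower at an unadjusted p under 0.05, against 1601 and 1069 of all genes, and DESeq2 called 11 lower (8.3% of genes). In Dcaf1-deficient against young Tconv edgeR called 0 members (0% of all genes), 8 had an unadjusted p under 0.05, 1 higher and 7 lower, against 547 and 407 of all genes, and DESeq2 called 1 lower (0.826% of genes). limma-trend on the deposited log2 values called only Rbm20, in aged Tconv.

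As a list, the members lay on the lower side in all 4 comparisons. The median log2 fold change was -0.094 in aged Treg, -0.13 in Dcaf1-deficient Treg, -0.082 in aged Tconv and -0.10 in Dcaf1-deficient Tconv, beside 0.024, -0.0081, -0.0017 and -0.0011 over all genes tested. The members below 0 numbered 59, 64, 61 and 66 of 90 in the same order. Both libraries of aged Treg lay below both of young Treg for 30% of members and above for 16.7%, against 22.4% and 20.2% of all genes. For Dcaf1-deficient Treg these shares were 51.1% and 21.1%, against 36.9% and 35.2%. For aged Tconv they were 40% and 17.8%, against 29.1% and 29.9%, and for Dcaf1-deficient Tconv 51.1% and 17.8%, against 32.7% and 34.2%. Where libraries of a single tag could be compared, the members' median difference in log2 CPM was -0.15 for aged Treg 1 minus young Treg (L4), -0.14 for Dcaf1-deficient minus young Treg (all L4), -0.036 for aged Tconv 1 minus young Tconv 2 (L5) and -0.067 for Dcaf1-deficient Tconv minus young Tconv 2 (L5). The aged Treg median was the one most moved by single libraries: it was -0.0075 without young Treg 1, -0.19 without young Treg 2 and -0.17 without both young Treg 2 and aged Treg 1.

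**Figure D3:**
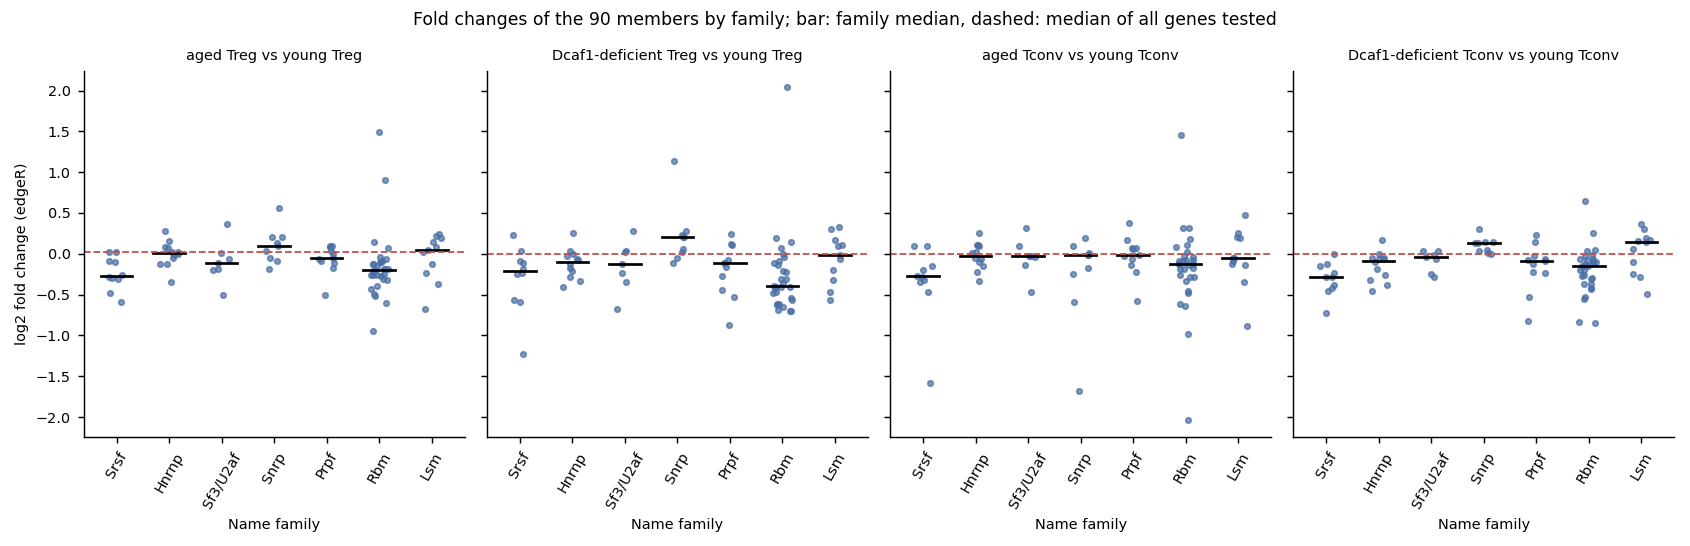
Log2 fold change of each member (point) in the 4 comparisons with the young group, by name family, with the family's median (bar) and the median of all genes tested (dashed line). The Srsf and Rbm medians lie below the dashed line in all 4 panels, from -0.29 to -0.13 except for Rbm in Dcaf1-deficient Treg at -0.40, while the Snrp medians run from -0.013 to 0.20.

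Among the SR proteins 8 of 10 members were below 0 in aged Treg and 8 in Dcaf1-deficient Treg. In Tconv 8 were below 0 in the aged and 10 in the Dcaf1-deficient comparison. The medians were -0.27, -0.21, -0.27 and -0.29 in the same order. Within tag L5, aged Tconv 1 minus young Tconv 2 ran from -0.92 log2 CPM for Srsf12 to 0.13 for Srsf3. It was -0.056 for Srsf5 and -0.047 for Srsf6. The family's mean log2 CPM was 7.62 in aged Tconv 1 and 7.26 in aged Tconv 2, against 7.88 and 7.72 in young Tconv. EdgeR called no Srsf member over the 12 libraries, and DESeq2 called Srsf12 in aged Tconv. Without aged Tconv 1 the edgeR log2 fold changes there were -0.64 for Srsf5, -0.50 for Srsf11 and -2.42 for Srsf12. That fit leaves only aged Tconv 2 in its group, a library with tag L3 and high Xist. Age, tag and Xist cannot be told apart in it. The values of Srsf5 and Srsf6 are those given above by library: both aged and both Dcaf1-deficient Treg libraries were below both young Treg libraries, and the same held for Tconv. For Srsf5 the log2 fold changes were -0.48, -0.56, -0.35 and -0.29 in that order (SE 0.19 each, edgeR adjusted p 0.252, 0.153, 0.27 and 0.6), and for Srsf6 they were -0.59, -0.59, -0.47 and -0.38 (SE 0.23 each, edgeR adjusted p 0.242, 0.171, 0.221 and 0.573). Srsf1, the founding SR protein, differed most in Dcaf1-deficient Tconv, at 324.4 and 337.9 CPM against 485 and 401.8 in young Tconv (-0.42, SE 0.13, edgeR adjusted p 0.425). Srsf2 was at 312.8 and 283.9 CPM in Dcaf1-deficient Tconv, against 450.7 and 372.9 in young Tconv (-0.46, SE 0.16, edgeR adjusted p 0.457). Srsf10, a repressor-type SR protein, was at 217.5 and 183.7 CPM in aged Treg against 258.9 and 235.9 in young Treg (-0.30, SE 0.11, edgeR adjusted p 0.227). Srsf12, a low-count SR protein, was at 2.944 and 1.141 CPM in aged against 6.57 and 5.665 in young Tconv (-1.58, SE 0.56; adjusted p 0.113 by edgeR and 0.0412 by DESeq2). Srsf9, picked after its values were seen, lay on the other side, at 73.74 and 70.73 CPM in Dcaf1-deficient Treg against 57.91 and 65.43 in young Treg (0.23, SE 0.14).

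**Figure D4:**
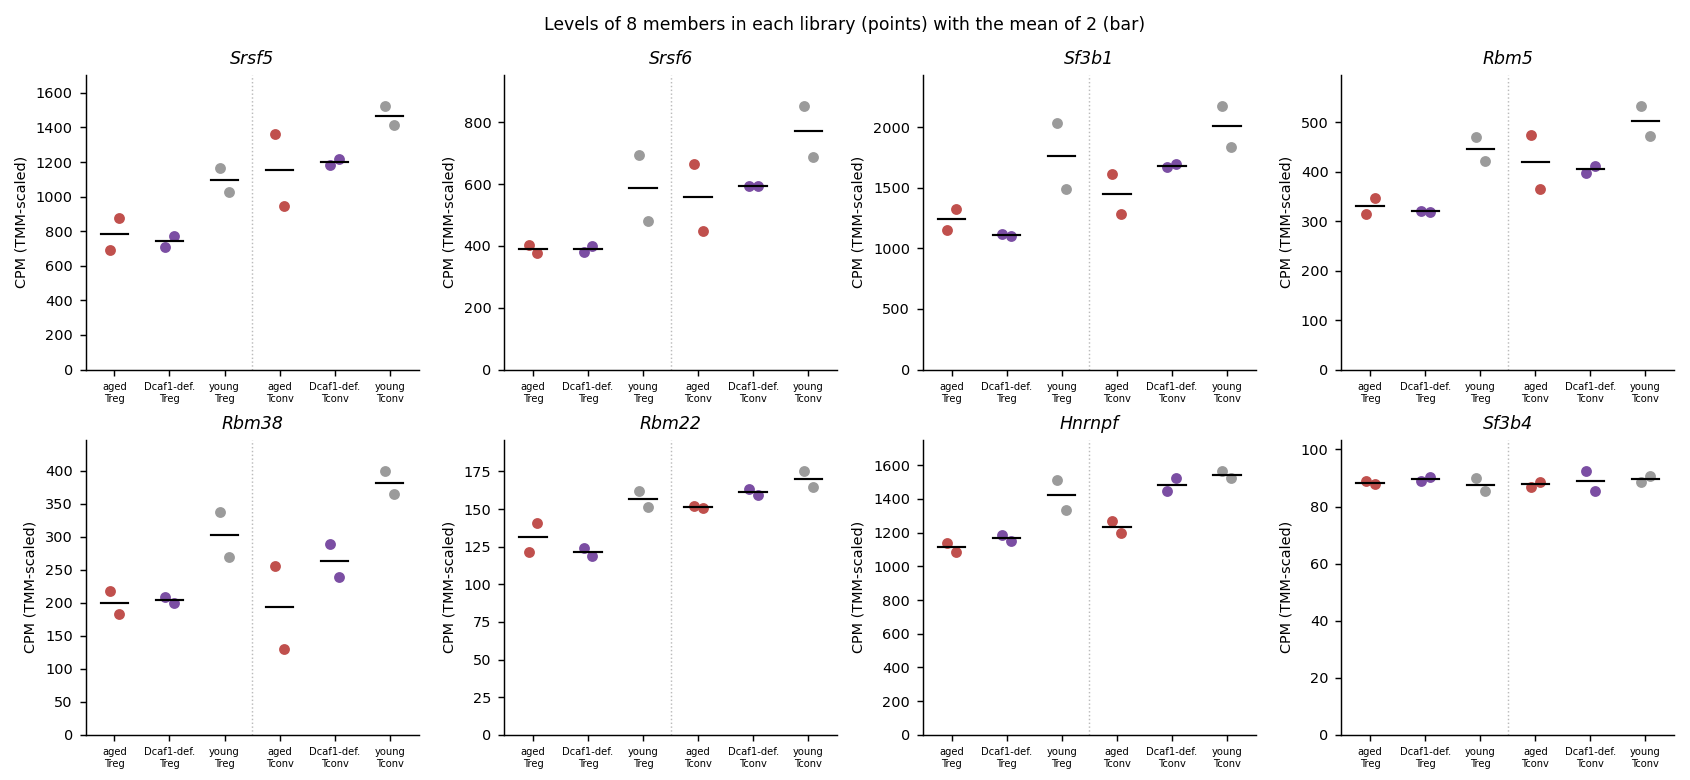
CPM of 8 members in each library (points), with the mean of the 2 libraries of a group (bar), for aged, Dcaf1-deficient and young Treg and then Tconv; axes start at 0. Srsf5, Srsf6, Sf3b1, Rbm5 and Rbm38 are highest on average in the young group of each cell type, and Sf3b4 stays between 85.34 and 92.31 CPM throughout.

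The hnRNP genes were nearly level with age, with medians of 0.012 in aged Treg and -0.022 in aged Tconv. They had medians of -0.10 in Dcaf1-deficient Treg (10 of 12 below 0) and -0.085 in Dcaf1-deficient Tconv (11 of 12). With another library scaling the Dcaf1-deficient Treg median was -0.055 (8 of 12 below 0), and that of all genes was 0.034. Hnrnpf (chromosome 6, 117900324 to 117925622), which binds G-rich RNA, was at 1141 and 1083 CPM in aged, 1187 and 1151 in Dcaf1-deficient and 1510 and 1333 in young Treg, and at 1267 and 1196, 1446 and 1523, and 1563 and 1523 CPM in the same groups of Tconv. Aged libraries lay below young ones in both cell types, and the Dcaf1-deficient ones did so without overlap in Treg. Its log2 fold changes with age were -0.35 in Treg (SE 0.11; adjusted p 0.187 by edgeR and 0.00708 by DESeq2) and -0.33 in Tconv (SE 0.11; adjusted p 0.103 by edgeR and 0.00161 by DESeq2). Hnrnpl, the CD45 splicing regulator, was at 420 and 472.8 CPM in aged, 423.8 and 398.2 in Dcaf1-deficient and 489.4 and 435.1 in young Treg, and the groups of aged and young Treg overlapped. In Tconv it was at 492.7 and 503.2, 474.1 and 462.5, and 566.4 and 501.8 CPM. None of its 4 fold changes was called by edgeR or DESeq2 (-0.05, -0.17, -0.10 and -0.19, SE 0.11 each). Hnrnpk, Hnrnpu and Hnrnpd had log2 fold changes between -0.15 and 0.072 in all 4 comparisons.

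In the SF3 and U2AF group the medians were -0.11 in aged Treg, -0.12 in Dcaf1-deficient Treg, -0.031 in aged Tconv and -0.037 in Dcaf1-deficient Tconv. Sf3b1 (chromosome 1, 54985169 to 55027481), the most expressed member, was at 1155 and 1329 CPM in aged, 1117 and 1101 in Dcaf1-deficient and 2037 and 1491 in young Treg, and at 1612 and 1286, 1669 and 1697, and 2174 and 1839 CPM in the same groups of Tconv. Every aged and Dcaf1-deficient library was below both young libraries of its cell type, although the 2 young Treg libraries themselves differed by more than the gap. The log2 fold changes were -0.51, -0.67, -0.47 and -0.25 (SE 0.19 each, edgeR adjusted p 0.234, 0.135, 0.149 and 0.638 in the order aged Treg, Dcaf1-deficient Treg, aged Tconv and Dcaf1-deficient Tconv). DESeq2 called the second (adjusted p 0.0144) and the third (0.043). Without young Treg 2 and aged Treg 1 the second was -0.87. In that fit young Treg 1, with few transcripts of other cells, is the only young Treg library. The label and those transcripts cannot be told apart in it. Among other subunits, Sf3b4 was between -0.031 and 0.03 and Sf3a1 between -0.24 and 0.10. Sf3a2 was lower with groups apart in both Treg comparisons, at -0.18 in aged and -0.12 in Dcaf1-deficient Treg (SE 0.12 each). The subunits were not tested against each other. Sf3b5, a small SF3B subunit, was at 50.16 and 54.48 CPM in aged against 39.22 and 42.15 in young Treg (0.36, SE 0.16, edgeR adjusted p 0.287). U2af1l4, a stand-in for the small U2AF subunit, had values between -0.34 and -0.14 (SE 0.21 each).

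The snRNP proteins leaned to the other side in 3 of the 4 comparisons, with medians of 0.10 in aged Treg, 0.20 in Dcaf1-deficient Treg (7 of 9 above 0) and 0.13 in Dcaf1-deficient Tconv (8 of 9), and -0.013 in aged Tconv. The mean log2 CPM of the 9 members was 5.84 and 5.36 in aged against 5.51 and 5.61 in young Treg. In this mean aged Treg 1 lay above and aged Treg 2 below both young libraries. It includes the low-count Snrpn, with 41 and 3 estimated counts in aged and 6 and 20 in young Treg. The part of Snrpn in the mean was not tested. Snrpa1, the A' protein of the U2 snRNP, was at 70.11 and 59.18 CPM in aged, 75.42 and 60.87 in Dcaf1-deficient and 57.87 and 54.53 in young Treg (0.20 and 0.28, SE 0.14 each, edgeR adjusted p 0.457 and 0.239). Its aged Treg difference was -0.0016 without young Treg 2 and aged Treg 1. Snrpb, a core Sm protein, was at 240.3 and 227 CPM in Dcaf1-deficient against 195.4 and 210.2 in young Treg (0.20, SE 0.10, edgeR adjusted p 0.243), and Snrpa of the U1 snRNP was at 71.17 and 67.33 against 59.56 and 58.42 (0.23, SE 0.13, edgeR adjusted p 0.279). These are small steps, none called. The Sm protein gene Snrpd3 had a different pattern: 89.87 and 75.38 CPM in aged against 124.6 and 124 in young Tconv (-0.59, SE 0.17, edgeR adjusted p 0.0655, DESeq2 adjusted p 0.0166), 136.3 and 136.6 in Dcaf1-deficient Tconv, and 101.5 and 71.19 in aged against 102.9 and 93.99 in young Treg. Beside these values, the 8 cell cycle genes in the table, of 12 listed, summed to 1003 and 306 CPM in aged, 1124 and 950 in Dcaf1-deficient and 133 and 318 in young Treg, and to 123 and 432, 591 and 631, and 80.7 and 160 CPM in the same groups of Tconv; their part in the snRNP values was not tested.

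Of the PRPF genes, Prpf8 was within -0.13 to -0.00014 and the ubiquitin ligase gene Prpf19 within -0.14 to 0.24 in the 4 comparisons, and the family medians ran from -0.11 to -0.018. Prpf40b, a relative of a U1-associated yeast protein, differed most in Dcaf1-deficient Tconv, at 14.98 and 16.97 CPM against 29.33 and 27.01 in young Tconv (-0.82, SE 0.24, edgeR adjusted p 0.421, DESeq2 adjusted p 0.0432). It was at 14.52 and 16.37 CPM in Dcaf1-deficient against 23.26 and 21.21 in young Treg (-0.53, SE 0.23, edgeR adjusted p 0.209), so the groups were apart in both cell types. In aged Tconv it was at 29.77 and 25.85 CPM, which overlaps the young libraries. Prpf31 was at 85.67 and 92.91 CPM in Dcaf1-deficient against 72.42 and 80.03 in young Tconv (0.23, SE 0.13, edgeR adjusted p 0.554). Prpf18, which acts in the second step of splicing, was at 129.7 and 186 CPM in aged against 126.3 and 115.5 in young Tconv (0.38, SE 0.17, edgeR adjusted p 0.183), with aged Tconv 2 well above the rest.

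The RBM genes gave the lowest family median of any comparison in Dcaf1-deficient Treg, -0.40, with 26 of 30 below 0 and 12 at an unadjusted p under 0.05, all lower. In aged Treg, aged Tconv and Dcaf1-deficient Tconv the medians were -0.19 (26 below 0), -0.13 (23) and -0.15 (26). Rbm48 was at 22.33 and 23.93 CPM in Dcaf1-deficient against 39.27 and 36.09 in young Treg (-0.70, SE 0.15, edgeR adjusted p 0.131, DESeq2 adjusted p 0.0022). Rbm22 was at 124.4 and 119.1 against 162.2 and 151.3 CPM (-0.36, SE 0.091, edgeR adjusted p 0.131, DESeq2 adjusted p 0.00955). The Dcaf1-deficient libraries lay below the young ones in both genes, and so did Rbm26 at 97.02 and 93.78 against 133.5 and 122.6 CPM (-0.42, SE 0.12; adjusted p 0.133 by edgeR and 0.0237 by DESeq2). Rbm25 and Rbm39, splicing regulators with arginine-rich regions, were at -0.54 (SE 0.16; adjusted p 0.139 by edgeR and 0.0321 by DESeq2) and -0.47 (SE 0.17, edgeR adjusted p 0.161). Rbm5 was at -0.48 (SE 0.14; adjusted p 0.138 by edgeR and 0.0308 by DESeq2) in Dcaf1-deficient and -0.43 (SE 0.14, edgeR adjusted p 0.192) in aged Treg. The macrophage sums were 9700 and 11672 CPM in Dcaf1-deficient Treg, against 114 in young Treg 1 and 3265 in young Treg 2. The B cell sums were 1598 and 1720 CPM, against 52.3 and 1732. A fit of Dcaf1-deficient against young Treg that keeps only young Treg 1 thus sets many such transcripts against few. The label and those transcripts cannot be told apart in it. Without both young Treg 2 and aged Treg 1, the only young library left for this comparison is young Treg 1, and edgeR then called 1 member higher and 17 lower, where 12.5% of genes were called higher and 10.2% lower; the lone library is taken to vary like the other groups. Those 17 are 11 RBM, 2 PRPF and 2 LSM genes with Sf3b1 and Hnrnpr. They include Rbm48 (-0.76, edgeR adjusted p 0.0296), Rbm22 (-0.41, 0.0286), Rbm26 (-0.48, 0.0199), Rbm25 (-0.72, 0.0155) and Rbm39 (-0.65, 0.0329). Chosen from them after their values were seen, the largest differences include Rbm18 (-0.91, SE 0.11, edgeR adjusted p 0.00759), Prpf39 (-1.20, SE 0.25, edgeR adjusted p 0.0253) and Rbm33 (-0.92, SE 0.22, edgeR adjusted p 0.0327).

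Over the 12 libraries, the only member that edgeR called with age was Rbm20 (chromosome 19, 53677306 to 53867080), known for the splicing of titin in the heart and very low in these cells. It had 9 and 9 estimated counts (0.4999 and 0.4277 CPM) in aged Tconv, against 40 and 36 counts (1.877 and 1.98 CPM) in young Tconv, or -2.04 on the log2 scale (SE 0.42, adjusted p 0.0313 by edgeR). It had 0.927 and 1.205 CPM in Dcaf1-deficient Tconv, and 0.4921 and 0.8283 in aged, 0.7033 and 0.9235 in Dcaf1-deficient and 1.271 and 1.255 in young Treg, so the young groups were the highest in both cell types. Within tag L5, aged Tconv 1 minus young Tconv 2 was -1.81 log2 CPM. The call was lost without any single one of young Treg 1 or 2, Dcaf1-deficient Treg 1 or 2, young Tconv 1 or 2, aged Tconv 2 and Dcaf1-deficient Tconv 1 or 2, with a term for the tag, and in a fit of the Tconv libraries alone. Its fold change was -2.27 to -1.94 over all fits to the counts, and -0.71 on the scale of the deposited log2 values (limma-trend adjusted p 0.0398). Some fits with a library left out also called other members in aged Tconv. The share of all genes called is not given for those fits.

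Rbm38, a p53-induced regulator of mRNA stability, was at 217 and 183.1 CPM in aged, 208.4 and 199.5 in Dcaf1-deficient and 337.7 and 268.6 in young Treg, and at 255.6 and 130.6, 288.2 and 239, and 398.7 and 364.7 CPM in the same groups of Tconv. The young libraries were above all others of their cell type. The log2 fold changes were -0.60, -0.57, -0.98 and -0.53 for aged Treg, Dcaf1-deficient Treg, aged Tconv and Dcaf1-deficient Tconv (SE 0.28 each, edgeR adjusted p 0.312, 0.239, 0.0689 and 0.545), and DESeq2 called the aged Tconv value (adjusted p 0.00742). Rbm3, a cold-inducible RNA-binding protein, was between -0.32 and -0.058 (SE 0.18 each). Rbm11, a tissue-restricted splicing regulator, went the other way with age, at 2.423 and 7.593 CPM in aged against 2.26 and 1.298 in young Treg (1.49, SE 0.57, edgeR adjusted p 0.241) and at 3.61 and 3.612 in aged against 1.079 and 1.54 in young Tconv (1.46, SE 0.58, edgeR adjusted p 0.144). In Dcaf1-deficient cells Rbm11 was at 1.407 and 1.259 CPM in Treg and 0.8782 and 0.5786 in Tconv. Rbm43 was at 62.82 and 77.47 CPM in aged and 65.77 and 68.03 in Dcaf1-deficient against 56.41 and 56.32 in young Tconv (0.32 and 0.25, SE 0.14 each, edgeR adjusted p 0.197 and 0.564). Rbm12b1 had a single low library, aged Tconv 2 at 23.19 CPM, against 40.55 to 75.99 in the other 11. Rbm15b, picked because its exons overlap those of Dcaf1 in the annotation, was at 56.72 and 46.3 CPM in Dcaf1-deficient against 57.3 and 56.13 in young Treg (-0.14, SE 0.16), and at 67.77 and 60.94 in Dcaf1-deficient against 74.62 and 67.71 in young Tconv (-0.15, SE 0.16).

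Rbm47, an RNA-binding protein of epithelial and myeloid cells, varied with the markers of other cells. It was at 8.555 and 1.841 CPM in aged, 8.931 and 13.89 in Dcaf1-deficient and 0.4708 and 5.063 in young Treg, and its order over the Treg libraries was that of the macrophage sum. The log2 fold change was 2.04 in Dcaf1-deficient Treg (SE 1.04, edgeR adjusted p 0.251). It was 4.59 without both young Treg 2 and aged Treg 1, where young Treg 1, with the lowest macrophage sum in Treg, is the only young Treg library. In a bulk library, fewer cells of a type and less RNA per cell cannot be told apart.

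**Figure D5:**
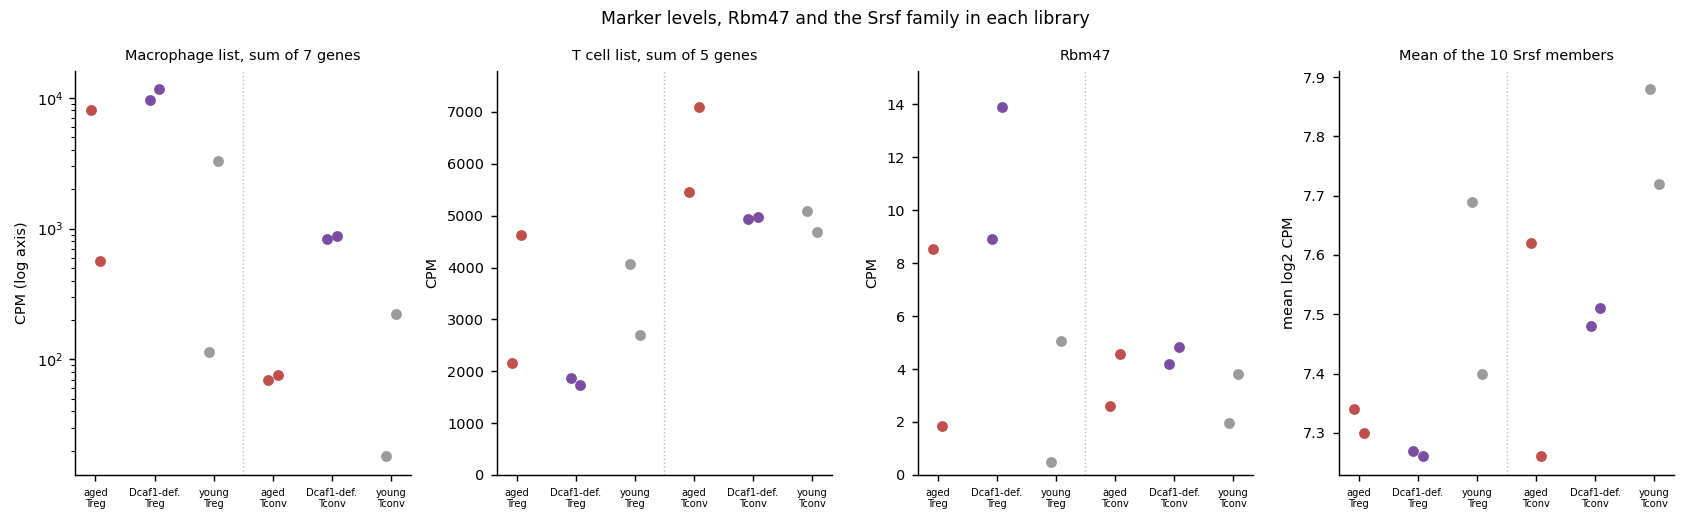
Summed CPM of 7 macrophage markers (log axis) and of 5 T cell markers, CPM of Rbm47, and mean log2 CPM of the 10 Srsf members, for each library of aged, Dcaf1-deficient and young Treg and then Tconv. Rbm47 is highest (13.89 CPM) where the macrophage sum is highest (11672 CPM), and the Srsf mean is 7.34 or lower in the aged and Dcaf1-deficient Treg libraries and 7.69 and 7.4 in young Treg.

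The macrophage sums can be set beside the family means of each library. The mean log2 CPM of the 10 Srsf members was 7.34 and 7.3 in aged Treg, where the macrophage sums were 8126 and 562 CPM, and 7.69 and 7.4 in young Treg, where they were 114 and 3265. The aged Treg library with few macrophage transcripts was as low as the one with many, whereas the young pair differed. That aged library, aged Treg 2, has tag L3 and high Xist (2018 CPM), unlike both young Treg libraries. The other library of tag L3, aged Tconv 2, also had high Xist and the lowest Srsf mean in Tconv (7.26). Age, tag and Xist cannot be told apart in aged Treg 2, so its low mean does not settle the part of macrophage transcripts. In Tconv the macrophage sums were 70 and 75.9 CPM in aged, 826 and 875 in Dcaf1-deficient and 18.1 and 223 in young libraries. The B cell sums were 33.1 and 12.3, 165 and 176, and 11.2 and 108 CPM in the same order. Both sums were thus highest in Dcaf1-deficient Tconv. The Srsf mean in Tconv was 7.62 and 7.26 in aged, 7.48 and 7.51 in Dcaf1-deficient and 7.88 and 7.72 in young cells. For the 30 RBM members the means were 6.12 and 6.25 in aged, 6.1 and 6.08 in Dcaf1-deficient and 6.39 and 6.26 in young Treg, where aged Treg 2 (6.25) and young Treg 2 (6.26) were level. The part of other cells' transcripts in the Treg and Tconv fold changes was not tested.

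In the LSM family the medians were 0.047 in aged Treg, -0.015 in Dcaf1-deficient Treg, -0.054 in aged Tconv and 0.14 in Dcaf1-deficient Tconv, and the second was 0.028 with another library scaling. Lsm2, of the ring that binds U6 snRNA, was at 26.37 and 23.55 CPM in Dcaf1-deficient Treg, against 19.49 and 20.17 in young Treg (0.33, SE 0.15, edgeR adjusted p 0.213). Lsm3 of that ring was at 51.52 and 53.52 CPM in Dcaf1-deficient Tconv, against 37.78 and 43.67 in young Tconv (0.37, SE 0.15, edgeR adjusted p 0.491). Lsm4 of the same ring was on the other side, at 71.26 and 73.62 CPM in aged and 81.96 and 70.06 in Dcaf1-deficient against 92.22 and 91.96 in young Tconv (-0.35 and -0.28, SE 0.10 each, edgeR adjusted p 0.064 and 0.453; DESeq2 adjusted p 0.00303 for the aged value). Lsm10 and Lsm11 form the U7 snRNP that processes histone mRNA, and they also differed in direction. Lsm11 was at 25.72 and 14.97 CPM in aged against 40.17 and 35.09 in young Tconv (-0.89, SE 0.28, edgeR adjusted p 0.0832, DESeq2 adjusted p 0.0203). Lsm10 was at 20.77 and 30.42 against 17.08 and 19.53 CPM (0.48, SE 0.21, edgeR adjusted p 0.175), with the extreme value of both genes in aged Tconv 2. Lsm6 of the U6 ring was at 75.11 and 87.16 CPM in aged against 68.55 and 70.32 in young Treg (0.22, SE 0.12, edgeR adjusted p 0.354). Lsm14a, a P-body protein, was at 262.3 and 249.1 CPM in Dcaf1-deficient against 336.9 and 302.2 in young Treg (-0.32, SE 0.10; adjusted p 0.142 by edgeR and 0.0282 by DESeq2). Without young Treg 2 and aged Treg 1 it was at -0.39. In that fit only young Treg 1 is left, and the label cannot be told apart from other cells' transcripts.

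Whether the response differed between the cell types was tested as the change in Treg minus the change in Tconv. For age, edgeR called 0 members (0% of genes), with a median of 0.0035, and 0 members had an unadjusted p under 0.05. For the Dcaf1 label it also called 0 (0% of genes), with a median of -0.037 and 0 members at an unadjusted p under 0.05. DESeq2 and limma-trend also called 0 members in both tests, but a difference that misses the threshold does not show that the cell types respond alike. Treg and Tconv comparisons share no library, so their lists can be set against each other, although whether they share animals is not stated. With age, 20 members had groups apart and lower in both cell types, 74.1% of the 27 in Treg and 55.6% of the 36 in Tconv, against 63.2% and 48.7% over all genes. These include Srsf2, Srsf5, Srsf6, Srsf10, Sf3b1, Hnrnpf, Rbm22, Rbm38 and Lsm4. For Dcaf1 deficiency 38 members were lower in both, 82.6% of the 46 in Treg and of the 46 in Tconv, against 64.4% and 72.7% over all genes, among them Srsf5, Srsf6, Sf3b1, Hnrnpl, Rbm5, Rbm25, Rbm39 and Prpf8. In the higher direction the shares were smaller: with age 5 members, 33.3% of the 15 in Treg and 31.2% of the 16 in Tconv, against 66.7% and 45.1% over all genes, and for Dcaf1 deficiency 10 members, 52.6% of 19 and 62.5% of 16, against 67.8% and 70%. These shares were not tested.

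Of 98 other splicing genes listed from textbook knowledge, 72 were tested. Their medians were -0.11 in aged Treg, -0.22 in Dcaf1-deficient Treg, -0.087 in aged Tconv and -0.14 in Dcaf1-deficient Tconv, with 54, 57, 52 and 56 below 0. In aged Tconv 2 were called lower and 0 higher: Aqr, an intron-binding helicase, at 241.5 ± 26.4 CPM in aged and 378.5 ± 16.9 in young Tconv (SD, n = 2 each; -0.65 on the log2 scale, SE 0.11, adjusted p 0.0199 by edgeR), and Srpk2, a kinase of SR proteins, at 131.1 ± 9.53 and 189.9 ± 9.11 CPM (-0.53, SE 0.13, edgeR adjusted p 0.0457). In the other 3 comparisons with young cells edgeR called 0 of the 72, with 6 at an unadjusted p under 0.05 in aged Treg (8.33%, against 17.9% of all genes), 20 in Dcaf1-deficient Treg (27.8%, against 24.8%) and 9 in Dcaf1-deficient Tconv (12.5%, against 10%). Between Treg and Tconv 2 were called higher and 12 lower in Treg, where 11.5% of all genes were called higher and 11% lower. Mbnl3 rose by 0.98 (SE 0.22, edgeR adjusted p 0.0215). Aqr fell by 0.50 (SE 0.061, edgeR adjusted p 0.00322) and Srpk2 by 0.51 (SE 0.076, edgeR adjusted p 0.00573).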

How the data were processed

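The authors' count table holds estimated counts for 13404 genes (11486 with a count). Per the submitters' processing notes, reads were quantified with Salmon 0.9.1 on mm10; gene sums came from tximport per the file name, and no source used here names the transcript annotation. A second deposited table has log2 values that DESeq2 scaled, per those notes, by a transform not given there; they served only for limma-trend. Counts were rounded and tested with edgeR 4.0.16 (R 4.3.3), quasi-likelihood: TMM scaling, filterByExpr (9495 genes tested), 1 fit over 12 libraries with 6 group means and 6 residual degrees of freedom, Benjamini-Hochberg adjustment within each of 7 comparisons, threshold 0.05. Standard errors are the fold change over the root of the quasi-likelihood F. Differences in log2 CPM use a prior count of 2. Coordinates are from GENCODE M21, promoters from RefSeq.

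Totals of 18358477 to 26852448 counts give members 12.9 or more counts per library on average. Alternatives were RLE scaling, a fit without the count filter, DESeq2 1.42.0, limma 3.58.1 on the log2 values, a replicate block, a tag term, fits by cell type, and leaving out each library or young Treg 2 with aged Treg 1. The edgeR step was tested on simulated data.

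Named members are fixed family representatives; called members; otherwise those with the smallest p whose groups are apart; the 6 highest by mean; and the 8 most variable. Others are said to be chosen after their values were seen, or illustrate a count. Members, lists and rules were chosen with earlier results of these data known. Genes of these families outside the tables were not analysed here.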

Additional observations from a re-analysis of the deposited data

How the results depend on the processing

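The members called changed most with the test and the libraries. Counts in this paragraph are given without the share of all genes called. DESeq2 called 1 member in aged Treg, 10 in Dcaf1-deficient Treg, 11 in aged Tconv, 1 in Dcaf1-deficient Tconv and 16 between Treg and Tconv; edgeR called 0, 0, 1, 0 and 9. A term for the tag left 0 in aged Tconv and 0 between Treg and Tconv. Without both young Treg 2 and aged Treg 1 the counts were 18 in Dcaf1-deficient Treg, 3 in aged Tconv and 1 between Treg and Tconv. Leaving out each library in turn gave 0 to 14 in aged Tconv and 0 to 20 between Treg and Tconv. Of 15 correlations between groups of the deviations of replicate 1, 4 were over 0.1 (range -0.66 to 0.68). Between Treg and Tconv of the same condition they were 0.68 in young, 0.27 in aged and 0.04 in Dcaf1-deficient cells. Whether Treg and Tconv libraries with the same replicate number came from the same animals is not stated. The replicate block gave 5 calls in aged Tconv. The members' median log2 fold change ranged, over single libraries left out, from -0.19 to -0.0075 in aged Treg, -0.20 to -0.078 in Dcaf1-deficient Treg, -0.094 to -0.02 between Treg and Tconv, -0.13 to -0.048 in aged Tconv, -0.13 to -0.049 in Dcaf1-deficient Tconv, -0.051 to 0.069 for the age difference between cell types and -0.093 to 0.044 for the Dcaf1 difference; without both doubted libraries it was -0.17 in aged Treg and -0.068 for the age difference. Snrpa1 in aged Treg reversed, to -0.0016, without those 2 libraries. Of 831 alternative values for 42 named results, 101 lost the call, 28 gained one, 1 reversed and the others kept their direction and side of the threshold. The cause was not tested. With 2 libraries a group, small differences are not detectable at this depth of replication.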
